A study of Rattus norvegicus with 35 samples.

Results

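This comparison asks what prenatal exposure to bisphenol A (BPA) at the higher of 2 doses left in the mammary gland transcripts of female rats at weaning. It rests on 10 arrays of the 35 in the series, all arrays labelled BPA250 and all arrays labelled as negative control. BPA250 arrays came from 5 female Sprague-Dawley offspring whose dams received BPA at 250 µg/kg/day by gavage from gestational day 10 to 21. Control arrays came from 5 female offspring of dams without BPA, and the labels do not say what these dams were given in its place. All animals were sampled at postnatal day 21, and total RNA of the abdominal left mammary gland was read on 1-colour Agilent whole rat genome arrays, 1 array per animal. The offspring came from different litters, but which pups share a dam is not labelled, so p-values measure the spread between these arrays. A further 5 arrays after BPA at 25 µg/kg/day (BPA25) serve for a comparison of the doses. Values are also given for BPA250 with genistein at 250 mg per kg of chow and BPA250 with indole-3-carbinol (I3C) at 2000 mg per kg of chow, 5 arrays each.

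BPA is a monomer of polycarbonate plastics and epoxy resins that binds oestrogen receptors. At weaning the rat mammary gland is a small tree of ducts, with a luminal and a basal epithelial layer, that grows into a large fat pad. This pad holds fibroblasts, vessels, a lymph node and nerves, and it lies between the skin and the muscle of the body wall. Skeletal muscle fibres are slow or fast according to which isoforms of myosin, troponin and calcium pump they make, and the factors MyoD and myogenin switch on both programmes.

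Expression is given as log2 of the processed signal relative to the 75th percentile of the array, so that 0 stands for the signal of a fairly bright probe. Differences are BPA250 minus control on this log2 scale, from limma, with the standard error of the fit. The p-values of 16156 genes were adjusted together (Benjamini-Hochberg), and a gene was called at 0.05. Of these genes, 9403 carry a name from the RefSeq gene table.

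Both arrays of replicate 2, which lie on slide 3, stood apart from the rest. On them 94.8% (BPA250) and 93.4% (control) of probes were well above background, and BPA250 replicate 3, on slide 5, had 72.2%. The other BPA250 arrays had 40.3% to 43.3% and the other control arrays 41.1% to 47.9%. The mean share was 58.3% (SD 24.4, n = 5) in BPA250 and 53.9% (SD 22.3, n = 5) in control, with p = 0.889 in an exact two-sided permutation test. Of the labelled tissue, 17 of 17 white adipocyte genes on the array, 13 of 19 luminal epithelium genes and 8 of 12 basal epithelium genes were bright enough to be tested, so fat and both epithelial layers were represented. Because slide 3 stands apart, main results are also given without its arrays.

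No gene passed between BPA250 and control, so 0.0% of genes were called in either direction. At an unadjusted p under 0.05, 30 genes (0.186%) stood higher and 130 genes (0.805%) lower in BPA250, 160 genes in all (0.99%). With no difference in any gene, a share of about 0.05 of the genes would be expected there, more than was seen. For 45 genes (0.279%) the 5 BPA250 values and the 5 control values did not overlap, with 9 genes (0.0557%) higher and 36 (0.223%) lower in BPA250. Of the 252 arrangements of 5 and 5 arrays, a share of 0.00794 has no overlap, again more than was seen. Small p or no overlap of a single gene below is therefore only a description. Of all genes, 41.7% had a fitted difference above 0 and 58.3% below 0, and the median difference was -0.03. Without the arrays of slide 3, 281 genes had an unadjusted p under 0.05 and 0 passed. The count was also 249 without BPA250 replicate 2, 346 without control replicate 2 and 100 without control replicate 5. With arrays weighted by their quality, 2 genes passed and 640 had an unadjusted p under 0.05.

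Transcripts of skeletal muscle stood lower in BPA250 as a block. Of 68 genes in 4 muscle lists (slow fibre, fast fibre, shared sarcomere and energy supply, myogenic regulators with the neuromuscular junction), 62 are on the array and 52 were tested. In BPA250, 51 of these 52 stood lower and 1 higher, with a median difference of -2.39 against -0.03 over all genes. An unadjusted p under 0.05 was reached by 30 of them, all lower, against 0.805% of all genes lower. No overlap between the groups was seen for 15 of them, all lower, against 0.223% of all genes lower. A probe entered the fit if 4 arrays of any 1 group were well above background, so a gene could enter only through a group in which it was high. Of the 52 genes, 14 were well above background on fewer than 3 arrays of BPA250 or control. Of the other 38, 37 stood lower and 1 higher, with a median of -2.49, against 59.2% lower and a median of -0.04 over the 14947 genes measured as widely. Among the 38, 21 had an unadjusted p under 0.05 (0.575% of the 14947 did so lower). Of the 38, 13 were lower without overlap, against 29 of the 14947. This tally of the 38 was added after the data were seen. The 15 genes without overlap are 15 of the 36 lower genes without overlap. The lists were drawn up with such results known, so these counts describe the lists and are no independent evidence.

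The mean level of the 52 muscle genes was 0.11, 0.76, 0.55, -2.64 and -0.28 on BPA250 replicates 1 to 5. On control replicates 1 to 5 it was 1.46, 1.28, 2.14, 0.99 and 3.34. All BPA250 arrays lay below all control arrays, BPA250 replicate 4 far below the rest and control replicate 5 far above. These means include the 14 genes well above background on fewer than 3 arrays of BPA250 or control. No mean was taken over the other 38 alone, so the separation is no independent evidence. In whole tissue, fewer muscle cells and less muscle RNA per cell cannot be told apart, and how much muscle each sample held was not tested.

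The promoters of 5 genes are shown because they stand for the groups of genes described below: Tnni1 for slow fibres, Atp2a1 for fast fibres, Cox8b for muscle and brown fat mitochondria, Myog for the regulators and Oas1a for the interferon response. Each is the RefSeq sequence of GRCr8 from 250 bases before to 50 bases after the start, in the direction of transcription. Capitals mark the E-box CANNTG, the core to which myogenin and MyoD bind, and in Oas1a the motif GAAA, any 2 bases, GAAA, the core of the interferon-stimulated response element. Both strands were searched, and the 2 overlapping matches in Oas1a form 1 block.
Tnni1 promoter (chr13:49781279-49781578, + strand): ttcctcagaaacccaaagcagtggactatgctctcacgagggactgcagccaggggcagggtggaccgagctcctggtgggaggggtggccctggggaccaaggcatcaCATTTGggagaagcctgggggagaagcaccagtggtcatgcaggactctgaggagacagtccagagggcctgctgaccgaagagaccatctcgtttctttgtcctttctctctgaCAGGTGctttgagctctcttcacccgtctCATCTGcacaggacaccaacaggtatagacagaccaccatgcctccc
Atp2a1 promoter (chr1:190475361-190475660, - strand): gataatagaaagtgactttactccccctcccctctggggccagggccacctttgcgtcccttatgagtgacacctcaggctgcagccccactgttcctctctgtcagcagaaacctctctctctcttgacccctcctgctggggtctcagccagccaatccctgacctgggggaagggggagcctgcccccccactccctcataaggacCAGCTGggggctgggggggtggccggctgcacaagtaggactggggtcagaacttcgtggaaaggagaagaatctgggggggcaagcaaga
Cox8b promoter (chr1:205408224-205408523, - strand): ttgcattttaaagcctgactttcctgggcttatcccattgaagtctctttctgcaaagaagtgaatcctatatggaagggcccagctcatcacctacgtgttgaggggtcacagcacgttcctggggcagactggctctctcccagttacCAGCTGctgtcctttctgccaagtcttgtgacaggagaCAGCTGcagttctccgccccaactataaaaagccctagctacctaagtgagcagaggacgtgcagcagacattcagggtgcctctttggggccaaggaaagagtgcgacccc
Myog promoter (chr13:48297226-48297525, + strand): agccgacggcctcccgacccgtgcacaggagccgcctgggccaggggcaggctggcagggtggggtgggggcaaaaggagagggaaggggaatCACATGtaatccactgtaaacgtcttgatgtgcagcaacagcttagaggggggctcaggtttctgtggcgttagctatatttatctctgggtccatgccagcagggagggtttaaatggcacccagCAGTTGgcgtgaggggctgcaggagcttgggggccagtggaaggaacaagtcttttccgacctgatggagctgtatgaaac
Oas1a promoter (chr12:41330216-41330515, + strand): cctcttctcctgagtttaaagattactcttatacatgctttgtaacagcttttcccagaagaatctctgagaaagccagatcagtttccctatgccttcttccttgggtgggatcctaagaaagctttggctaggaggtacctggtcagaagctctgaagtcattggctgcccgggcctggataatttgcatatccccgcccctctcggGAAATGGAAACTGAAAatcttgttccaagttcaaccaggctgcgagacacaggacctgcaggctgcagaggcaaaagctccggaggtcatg

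The Tnni1 window holds 3 E-boxes, Myog 2, Cox8b 2 and Atp2a1 1. The matches in Cox8b and Atp2a1 have the form CAGCTG, which is one case of CANNTG. RefSeq promoters were found for 44 of the 52 tested muscle genes, 47 windows in all. CANNTG was in 44 of these 47 windows (93.6%), against 72.1% of all 33469 windows, and CAGCTG in 21 (44.7%), against 15.1%. A match describes the letters of the window and does not show that a factor binds there.

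Slow fibre genes stood lower in 12 of 12 tested members, with a median of -1.96, and in 8 of the 8 measured on at least 3 arrays of both groups (median -1.78). Tnni1, the inhibitory troponin subunit of slow fibres, had the smallest p of all genes. Its level was -3.99, -0.07, -1.41, -4.33 and -3.86 in BPA250 against 1.01, -1.0, 0.96, -0.59 and 0.14 in control (replicates 1 to 5). BPA250 replicates 1, 4 and 5 lay far below every control array, while replicate 2 of slide 3 was higher in BPA250 than in control. The difference was -2.84 ± 0.83 (unadjusted p = 0.00167, adjusted p = 1.0 in limma), and -3.78 without slide 3. Only 2 of the 5 BPA250 arrays had Tnni1 well above background, against 5 of 5 control arrays. The low values of BPA250 replicates 1, 4 and 5 were not, so the size of its difference is not a measured one.

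Csrp3, a LIM protein of the Z-disc, had levels of -3.76, -1.15, -0.47, -4.10 and -2.48 in BPA250 against 0.53, -1.54, 1.77, 0.04 and 0.05 in control. The same BPA250 replicates 1, 4 and 5 were the lowest, and the groups overlapped through control replicate 2 (-2.56 ± 0.89). Csrp3 too was well above background on only 2 BPA250 arrays, against 5 control arrays. Mb, myoglobin, which stores oxygen in slow fibres, stood at 0.59, 1.44, 1.16, 1.43 and 0.17 in BPA250 and at 3.22, 1.14, 3.54, 2.12 and 3.4 in control. Mb was well above background on all 10 arrays, and only control replicate 2 of slide 3 fell within the BPA250 range (difference -1.73 ± 0.67, and -2.23 without slide 3). Myh6, the alpha heavy chain of cardiac myosin, averaged -1.19 (SD 2.06, n = 5) in BPA250 and 1.69 (SD 1.09, n = 5) in control. Its range was -4.57 to 0.74 in BPA250 and 0.18 to 2.76 in control.

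Fast fibre genes stood lower in 13 of 13 tested members, with a median of -2.94 and differences from -3.4 to -2.11. Of these, 12 were measured on at least 3 arrays of both groups (12 lower, median -2.95). Atp2a1, the calcium pump of the fast sarcoplasmic reticulum, had levels of 0.31, 0.30, 0.36, -4.06 and -0.86 in BPA250 against 1.49, 1.79, 2.22, 0.64 and 4.58 in control. The groups did not overlap, but BPA250 replicates 1 to 3 lay just below the lowest control array (difference -2.94 ± 1.2). Atp2a1 was well above background on 4 BPA250 and 5 control arrays. Tnnt3, the tropomyosin-binding troponin of fast fibres, stood at 4.03, 2.72, 3.18, 0.24 and 2.69 in BPA250 and at 4.32, 4.42, 5.21, 3.96 and 7.63 in control. Here BPA250 replicate 1 was higher than control replicate 4 (-2.54 ± 1.10). Mybpc2, fast myosin binding protein C, differed by -2.91 ± 1.32 and Ryr1, the calcium release channel, by -2.11 ± 0.89. For Ryr1, 2 BPA250 arrays and 5 control arrays were well above background.

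**Figure D1:**
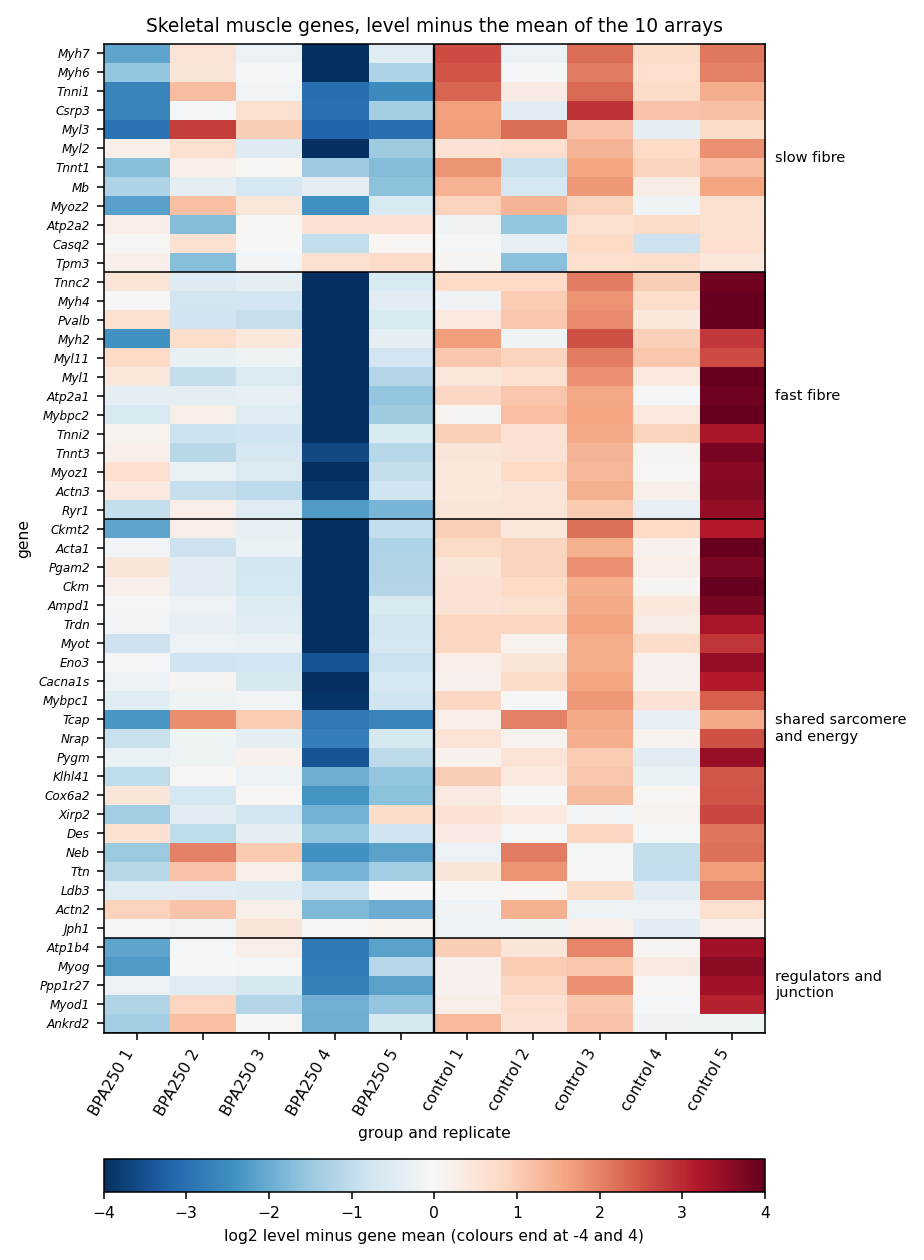
Levels of the 52 tested skeletal muscle genes on the 5 BPA250 and 5 control arrays, as log2 level minus the mean of each gene over the 10 arrays (blue lower, red higher). BPA250 replicate 4 is the darkest blue column and control replicate 5 the darkest red in the fast fibre and shared blocks, while in the slow fibre block BPA250 replicates 1 and 5 are low too.

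Slow and fast genes ranked the arrays differently. The mean of the 12 slow fibre genes was -1.02, 0.66, 0.38, -1.93 and -0.71 on BPA250 replicates 1 to 5, against 1.62, 0.24, 1.86, 0.79 and 1.55 on the control arrays. The mean of the 13 fast fibre genes was 2.75, 2.36, 2.27, -2.44 and 1.85 on the BPA250 arrays, against 3.4, 3.53, 4.48, 3.24 and 6.48 on the control arrays. Fast fibre means did not overlap between the groups, and slow fibre means overlapped only through control replicate 2, which lay below BPA250 replicates 2 and 3. Both lists include genes well above background on fewer than 3 BPA250 arrays, 4 slow and 1 fast.

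Of the 10 arrays, 3 pairs of a BPA250 and a control array share a slide, which allows the difference to be read within a slide. On slide 1 (replicate 1 of both groups) the median difference was -3.29 for slow and -0.29 for fast fibre genes. On slide 7 (BPA250 replicate 4 and control replicate 3) it was -3.82 and -6.56. On slide 3 (replicate 2 of both) it was 0.47 and -1.42. The fast fibre median was below 0 on all 3 slides, with 10, 13 and 12 of 13 genes lower in BPA250 on slides 1, 7 and 3. Slow fibre genes were lower on slides 1 and 7 (9 and 12 of 12 genes) and mostly higher on slide 3 (8 of 12 genes). Each slide gives 1 pair of arrays, so no test was made within slides.

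**Figure D2:**
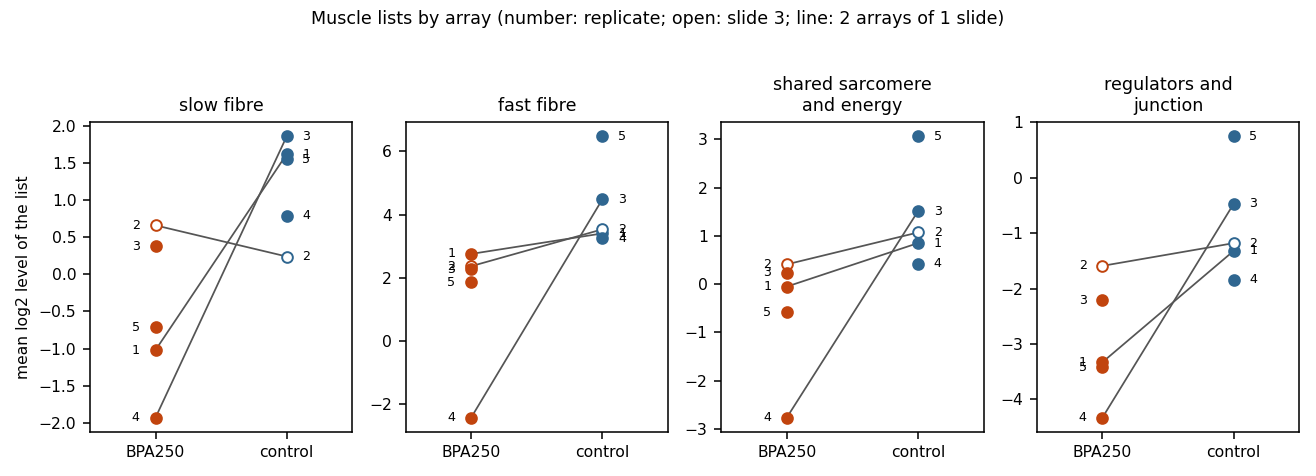
Mean log2 level of the tested genes of each muscle list on each array, BPA250 left and control right, with the replicate number beside each point, open symbols for slide 3 and lines that join 2 arrays of 1 slide. All lines climb from BPA250 to control except the slide 3 line of the slow fibre list.

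Genes of the shared sarcomere and of energy supply stood lower in 21 of 22 tested members, with a median of -1.95, and in 17 of the 18 measured on at least 3 arrays of both groups (median -2.27). Ckmt2, the mitochondrial creatine kinase of striated muscle, had levels of -1.50, 0.83, 0.28, -3.77 and -0.40 in BPA250 against 1.56, 1.01, 2.79, 1.41 and 3.77 in control, with no overlap (-3.02 ± 1.19). Only 3 BPA250 arrays had Ckmt2 well above background, against 5 control arrays. Myot, a Z-disc protein, stood at -1.57, -1.0, -1.03, -4.72 and -1.46 in BPA250 and at 0.09, -0.62, 0.72, -0.01 and 2.10 in control, again with no overlap (-2.41 ± 1.00). For Myot, 4 BPA250 and 5 control arrays were well above background. Klhl41, a regulator of sarcomere assembly, and Cox6a2, the muscle form of a cytochrome oxidase subunit, differed by -1.87 ± 0.71 and -1.69 ± 0.69, Klhl41 with 2 BPA250 and 4 control arrays above background.

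Among enzymes of glycolysis, 15 of 18 tested genes stood lower, with a median of -0.16, against 58.3% of all genes lower. The largest differences were those of muscle isoforms. Eno3, muscle enolase, had levels of 4.5, 3.73, 3.76, 1.09 and 3.69 in BPA250 against 4.81, 5.03, 6.03, 4.71 and 8.05 in control, with no overlap (-2.37 ± 0.99). Pgam2, muscle phosphoglycerate mutase, differed by -2.90 ± 1.45, the lactate transporter Slc16a3 by -1.56 ± 0.68 and Pfkm, muscle phosphofructokinase, by -0.81 ± 0.49. In the list of brown fat and thermogenesis genes 4 of 6 stood lower, with a median of -0.13. Cox8b, an oxidase subunit of muscle and brown fat, stood at 2.97, 2.05, 1.89, 0.27 and 1.66 in BPA250 and at 3.95, 3.37, 4.49, 3.47 and 5.91 in control. The Cox8b groups did not overlap (-2.47 ± 1.04). Ucp1, the uncoupling protein that defines brown fat, differed by -1.11 ± 0.84 with wide overlap, from -3.91 to 0.25 in BPA250 and from -3.90 to 0.47 in control.

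Tested genes of the list of myogenic regulators and the neuromuscular junction were dim in BPA250. Of 15 genes, 5 were tested, which were Myod1, Myog, Atp1b4, Ppp1r27 and Ankrd2. None of the 5 was well above background on more than 2 BPA250 arrays. They entered the fit through groups in which they were high, so their direction carries no count. Their differences rest largely on BPA250 values not well above background. Myog, myogenin, had levels of -4.12, -1.86, -1.90, -4.63 and -2.98 in BPA250 against -1.66, -0.83, -0.73, -1.50 and 1.75 in control. The groups did not overlap, with BPA250 replicate 2 just below control replicate 1 (difference -2.50 ± 0.86, and -2.87 without slide 3). Myog was well above background on 2 BPA250 and 5 control arrays. Myod1, the MyoD gene, differed by -2.0 ± 0.92 and was above background on 1 BPA250 and 4 control arrays. Atp1b4, a muscle protein of the sodium pump beta subunit family, differed by -2.75 ± 0.96, with 2 BPA250 and 5 control arrays above background. Ppp1r27, a regulatory subunit of protein phosphatase 1, stood at -1.87, -2.11, -2.28, -4.33 and -3.79 in BPA250 and at -1.46, -0.81, 0.19, -1.60 and 1.72 in control, without overlap and with the same numbers of arrays above background (-2.48 ± 0.81).

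Further genes with small p and no place in these lists included several that striated muscle also expresses. Scn4b, a sodium channel beta subunit, differed by -1.41 ± 0.49 and Jsrp1, a protein of the junctional sarcoplasmic reticulum, by -1.99 ± 0.76. Pdlim3, a partner of alpha-actinin, had levels of 0.89, 0.40, 0.59, -0.71 and 0.07 in BPA250 against 1.41, 1.27, 1.94, 1.29 and 3.78 in control. Pdlim3 did not overlap between the groups, was well above background on all 10 arrays and differed by -1.69 ± 0.62. Cryab, the small heat shock protein alpha-B crystallin, stood at 2.97, 2.04, 2.61, 2.28 and 2.81 in BPA250 and at 3.36, 2.41, 4.5, 3.62 and 4.80 in control. Control replicate 2 was the only control value of Cryab within the BPA250 range (-1.19 ± 0.46). Tpm1, alpha tropomyosin, differed by -1.79 ± 0.71 on its brightest probe, while its other probes gave -0.08, -2.04 and -2.82. Ddit4l, an inhibitor of mTOR signalling, differed by -1.84 ± 0.71 and Schip1, a cytoskeletal adaptor, by -1.12 ± 0.44.

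Nherf2, a PDZ scaffold of membrane transporters that is in none of the muscle lists, separated the groups within a narrow range. Its level was -0.34, 0.33, 0.15, 0.03 and -0.10 in BPA250 against 0.73, 0.44, 0.69, 0.63 and 0.39 in control. All BPA250 arrays lay below all control arrays, and all 3 shared slides had the lower value in BPA250 (-1.08, -0.10 and -0.66 on slides 1, 3 and 7). The difference of -0.56 ± 0.20 did not pass (unadjusted p = 0.00915, adjusted p = 1.0 in limma).

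**Figure D3:**
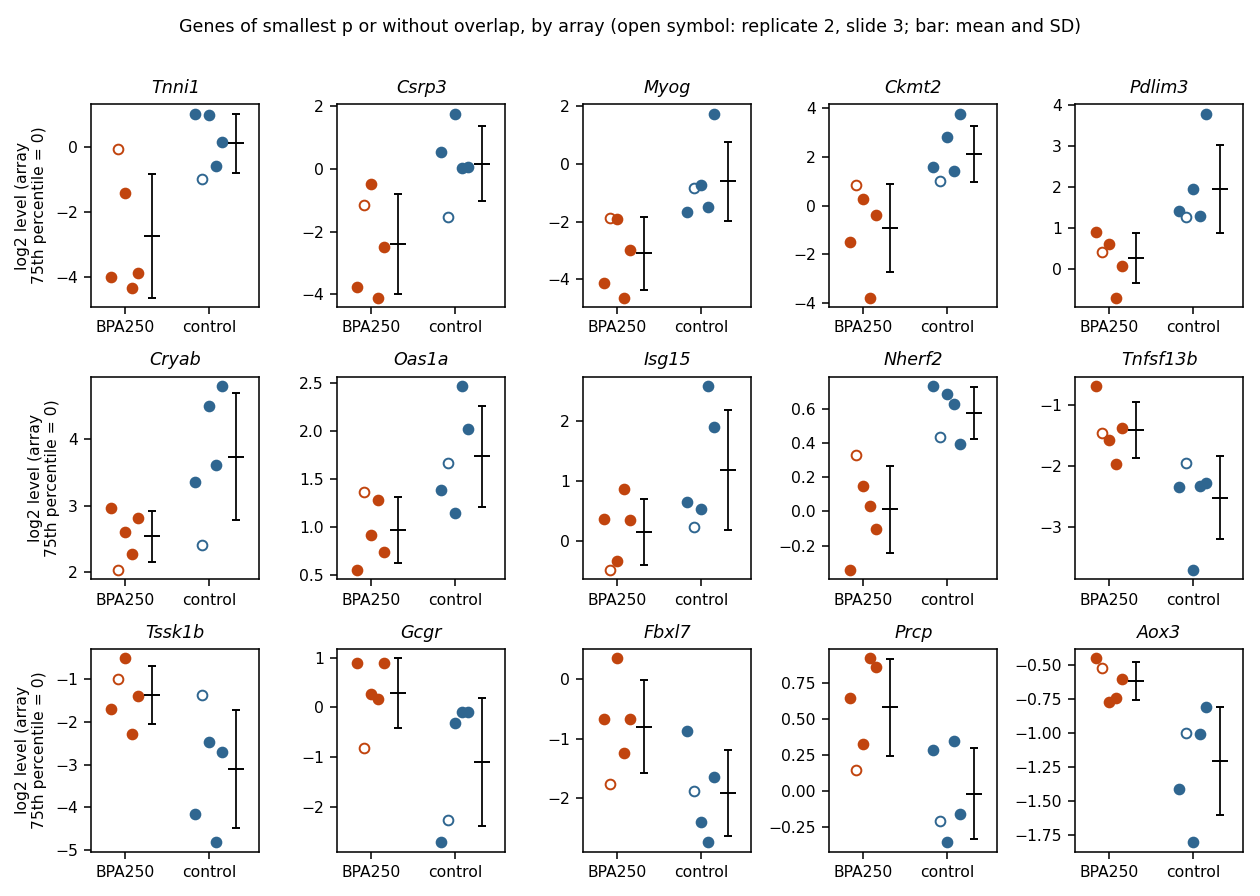
Log2 level relative to the 75th percentile of the array for 15 named genes, BPA250 left and control right, 1 point per array, with open symbols for replicate 2 on slide 3 and bars for mean and SD (n = 5). Groups are apart for Myog, Ckmt2, Pdlim3, Nherf2 and Aox3 and overlap for the other 10 genes.

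Interferon-stimulated genes stood mostly lower, by less than the muscle genes. These genes are switched on by type I interferon through the factor complex ISGF3. Of 16 tested, 13 stood lower in BPA250 and 3 higher, with a median of -0.32, against 58.3% of all genes lower. An unadjusted p under 0.05 was reached by 2, both lower, against 0.805% of all genes lower. List means overlapped, from -0.13 to 0.47 in BPA250 and from 0.19 to 0.85 in control. The list median was -0.20, -0.30 and 0.11 on shared slides 1, 3 and 7. Oas1a, which makes the activator of RNase L, had levels of 0.55, 1.36, 0.92, 1.28 and 0.75 in BPA250 against 1.38, 1.66, 1.14, 2.47 and 2.02 in control. Control replicate 3 was the only control value below the highest BPA250 value (-0.76 ± 0.27, and -0.88 without slide 3). Isg15, a ubiquitin-like modifier, stood at 0.36, -0.49, -0.34, 0.87 and 0.34 in BPA250 and at 0.66, 0.24, 0.54, 2.59 and 1.90 in control.

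For Isg15, control replicates 4 and 5 were high, and the other control arrays lay among the BPA250 values (-1.04 ± 0.40). On shared slide 7 the sign was the other way for both genes, with Oas1a 0.13 and Isg15 0.33 higher in BPA250. Irf7, the factor that amplifies the response, differed by -0.57 ± 0.44 and Cxcl10, an interferon-induced chemokine, by -0.83 ± 0.45, the second with 2 BPA250 and 4 control arrays above background. Cxcl10 was the lowest of the chemokine and cytokine list, in which 8 of 13 tested genes stood higher (median 0.13). Tap1, a peptide transporter of antigen presentation, was 0.71 ± 0.49 higher. It was the highest of the antigen presentation list, in which 11 of 14 tested genes stood lower (median -0.06). Of all genes, 58.3% stood lower and 41.7% higher. Of 10 interferon-stimulated genes with a RefSeq promoter, 7 held that GAAA motif pair (70.0%), against 3.92% of all windows.

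T cell genes stood lower in 6 of 6 tested members of 16 (median -0.71), but the arrays overlapped widely, with list means from -1.61 to -0.04 in BPA250 and from -0.98 to 1.10 in control. Cd3e and Zap70, parts of T cell receptor signalling, differed by -1.21 ± 0.86 and -0.96 ± 0.78, and Cd3e was above background on 2 BPA250 and 3 control arrays. Erythroid genes stood lower in 9 of 9 (median -0.38), with beta globin Hbb at -0.57 ± 0.62. Neutrophil genes stood higher in 4 of 4 (median 0.48), with the calprotectin subunit S100a8 at 0.74 ± 0.65. Mast cell genes stood higher in 8 of 9 (median 0.24), with Hdc, which makes histamine, at 0.33 ± 0.31. No member of these 4 lists had an unadjusted p under 0.05. Over all genes, 58.3% stood lower and 41.7% higher.

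In the epithelium, 10 of 13 luminal genes stood lower in BPA250, with a median of -0.39, while 4 of 8 basal and myoepithelial genes stood lower, with a median of 0.00. The share of all genes that stood lower was 58.3%. Krt7, a luminal keratin, had levels of -0.78, -1.16, -0.22, -0.82 and -1.73 in BPA250 against 0.47, -1.24, 0.53, 0.15 and -0.12 in control. Outside slide 3 the groups did not overlap, with BPA250 replicate 3 just below control replicate 5, but control replicate 2 lay among the BPA250 values (-0.90 ± 0.58). Epcam, an epithelial adhesion molecule, differed by -0.79 ± 0.63, and the tight junction claudins Cldn4 and Cldn7 by -0.77 ± 0.59 and -1.0 ± 0.76. On shared slides the luminal median was -1.25, 0.05 and -0.13 (slides 1, 3 and 7), with the lowest value on slide 1.

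Genes through which BPA or ductal growth signals act were dim or, on their brightest probe, differed by less than their error. Esr1 (oestrogen receptor alpha) was well above background on 2 BPA250 and 1 control arrays, Esr2 (oestrogen receptor beta) on 1 and 1, Pgr (progesterone receptor) on 2 and 1, Gper1 (membrane oestrogen receptor) on 3 and 1 and Ahr (aryl hydrocarbon receptor) on 1 and 1. Wap, a whey protein of lactation, was above background on 0 and 0. A difference in these 6 genes was not detectable at this signal. Prlr (prolactin receptor) differed by -0.04 ± 0.43, Csn2 (beta casein) by -0.01 ± 0.49, Areg (amphiregulin, an oestrogen-induced growth factor of the ducts) by -0.21 ± 0.56, Igf1 by 0.07 ± 0.51 and Cyp1b1, which hydroxylates oestradiol, by 0.35 ± 0.44. The sign of all of these but Cyp1b1 turned under some alternatives. Other kept probes of Igf1 gave 0.04 ± 0.52, 0.18 ± 0.32 and 0.50 ± 0.31, the last by more than its error.

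Of oestrogen-responsive genes, 6 of 12 stood lower and 6 higher (median 0.03), with the trefoil factor Tff3 at 0.52 ± 0.29. Of DNA methylation and histone modifiers, 13 of 16 stood lower (median -0.12), against 58.3% of all genes. Ezh2, which methylates histone H3, differed by -0.44 ± 0.40 and Dnmt3b, a de novo DNA methyltransferase, by -0.47 ± 0.32, Dnmt3b with 2 BPA250 and 4 control arrays above background.

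Glucocorticoid-induced genes stood lower in 12 of 15 (median -0.28), with Fkbp5, a cochaperone of the glucocorticoid receptor, at -0.40 ± 0.37, the clock gene Per1 at -0.40 ± 0.38 and the zinc finger factor Zbtb16 at -0.74 ± 0.65. Of p53 targets and apoptosis genes, 9 of 15 stood lower (median -0.05), and the p53 target Cdkn1a, a cell cycle inhibitor, was the lowest (-0.64 ± 0.47). Of clock genes, 7 of 10 stood lower (median -0.07), and Per2 was the lowest (-0.51 ± 0.45). Of immediate early genes, 9 of 15 stood lower (median -0.04), while Egr1 was the highest of them (0.59 ± 0.51). Over all genes 58.3% stood lower, so the counts of the p53 and immediate early lists are close to the share of all genes.

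White adipocyte genes had a median of -0.05, with 12 of 17 lower, against 58.3% of all genes. Lep, leptin, had levels of -0.79, -1.42, -0.99, -1.18 and -0.92 in BPA250 against -0.31, -0.97, -0.79, -0.48 and -0.48 in control. Lep was lower in BPA250 on all 3 shared slides (-0.48, -0.45 and -0.39), and the groups overlapped (difference -0.45 ± 0.32). Cebpa, a factor of fat cell differentiation, was 0.27 ± 0.24 higher. Genes of fatty acid and triglyceride synthesis stood higher in 15 of 19 (median 0.27), with Acss2 (acetyl-CoA from acetate) at 0.60 ± 0.36 and Gpam (the first acyltransferase of glycerolipids) at 0.45 ± 0.45. Cholesterol synthesis genes stood higher in 15 of 20 (median 0.14), with Hsd17b7 at 0.38 ± 0.29. Over all genes, 41.7% stood higher.

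**Figure D4:**
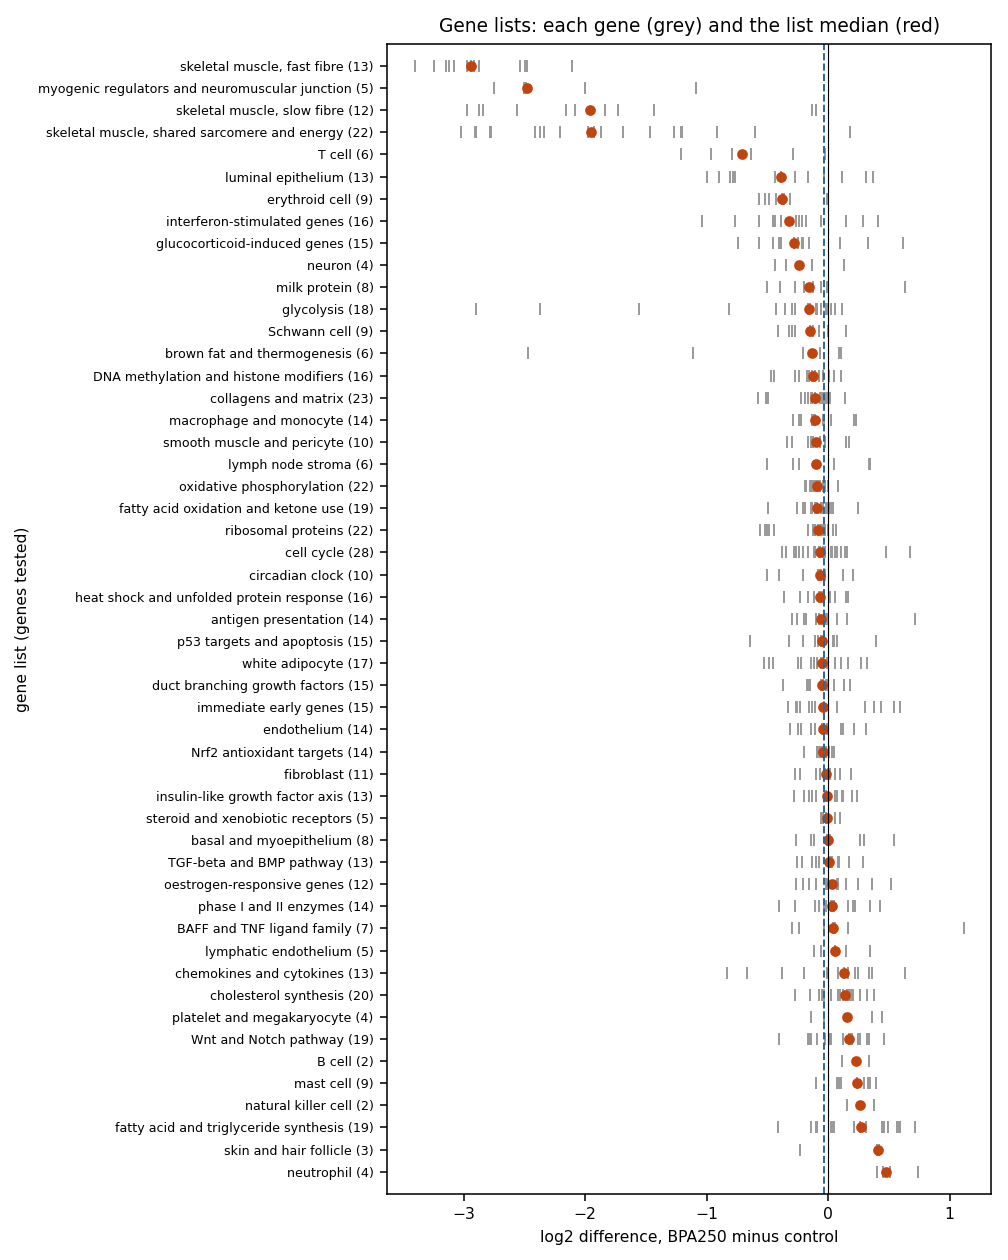
Log2 difference of BPA250 minus control for each tested gene (grey ticks) in 51 gene lists, with the list median (red) and the number of genes tested, and the median of all genes as a dashed line at -0.03. The 4 muscle lists have medians from -2.94 to -1.95, and all other medians lie between -0.71 and 0.48.

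Among genes higher in BPA250, Tnfsf13b, the cytokine BAFF on which B cells depend, had the smallest p. Its level was -0.68, -1.45, -1.57, -1.96 and -1.37 in BPA250 against -2.35, -1.95, -3.71, -2.33 and -2.28 in control. All BPA250 values but that of replicate 4 lay above all control values, and the sign held on all 3 shared slides (1.67, 0.50 and 1.75). The difference was 1.12 ± 0.34 (unadjusted p = 0.00236, adjusted p = 1.0 in limma), and 0.25 with another background correction (normexp). In the list of BAFF and other TNF ligands, 4 of 7 tested genes stood higher, with a median of 0.04, against 41.7% of all genes higher.

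Tssk1b, a serine kinase of the testis, stood at -1.70, -1.0, -0.52, -2.28 and -1.40 in BPA250 and at -4.15, -1.38, -2.48, -4.82 and -2.71 in control. Only 2 control arrays had Tssk1b above background, against 5 of 5 BPA250 arrays (1.73 ± 0.61). Gcgr, the glucagon receptor, had levels of 0.90, -0.82, 0.27, 0.18 and 0.89 in BPA250 against -2.71, -2.27, -0.30, -0.08 and -0.10 in control. Replicate 2 of BPA250 was the only BPA250 value of Gcgr below any control value (1.38 ± 0.57). Fbxl7, a substrate receptor of a ubiquitin ligase, stood at -0.67, -1.75, 0.35, -1.24 and -0.67 in BPA250 and at -0.86, -1.89, -2.41, -2.74 and -1.65 in control, with overlap (1.11 ± 0.45).

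Prcp, a lysosomal carboxypeptidase, was well above background on all 10 arrays and stood at 0.65, 0.14, 0.33, 0.92 and 0.86 in BPA250 against 0.28, -0.21, -0.36, 0.35 and -0.16 in control. It was higher in BPA250 on all 3 shared slides (0.36, 0.36 and 1.28, difference 0.60 ± 0.26). These values are those of its brightest probe, and the other kept probe of Prcp showed no difference (0.01 ± 0.31). Aox3, an aldehyde oxidase, was one of the 9 higher genes without overlap. Its level was -0.45, -0.52, -0.77, -0.74 and -0.61 in BPA250 against -1.41, -1.0, -1.81, -1.0 and -0.81 in control (0.59 ± 0.36). Its unadjusted p was 0.115 in the limma fit, which shares 1 estimate of the spread over all 7 groups of the series.

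The remaining named genes higher in BPA250 had unadjusted p between 0.0128 and 0.0534. Arhgef17, a guanine nucleotide exchange factor, differed by 1.41 ± 0.54, but only 2 control arrays had it above background, and on slides 1, 3 and 7 it was 0.85, -0.05 and -0.28. The difference of Mrm2, a methyltransferase of mitochondrial ribosomal RNA, was 0.84 ± 0.34. Tjap1, a protein of tight junctions, differed by 0.86 ± 0.40 and Ap3m1, an adaptor subunit of lysosomal traffic, by 0.66 ± 0.31. Dcx, a microtubule protein of young neurons, differed by 0.82 ± 0.38, Sfxn4, a mitochondrial carrier, by 0.59 ± 0.29 (4 control values, 1 being missing) and Or8c11, an olfactory receptor, by 1.05 ± 0.49. Tsga10, a testis gene, and the zinc finger gene Zfp40 differed by 1.02 ± 0.51 and 0.72 ± 0.36. Of probes without a RefSeq match, AW144183 (0.74 ± 0.24) and BF284850 (1.02 ± 0.43) stood higher without overlap and TC537731 (-2.99 ± 1.12) lower without overlap.

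The comparison with BPA25 sets the 2 doses against each other. It uses the same 5 BPA250 arrays as the comparison with control, including the low replicate 4, so it is no independent repeat of it. No gene passed (0.0% in either direction), and 272 genes (1.68%) had an unadjusted p under 0.05, 124 higher (0.768%) and 148 lower (0.916%) in BPA250. Most muscle genes stood lower in BPA250. The slow fibre list stood lower in 12 of 12 genes with 8 at an unadjusted p under 0.05, the fast fibre list in 13 of 13 with 5 and the shared list in 21 of 22 with 13. These counts include genes dim in BPA250, such as Tnni1, that entered the fit through other groups in which they were high. The 5 tested genes of the regulator and junction list, dim in BPA250, are not counted. With these 5 included, the median difference of the 52 genes, BPA250 minus BPA25, was -2.38, against -0.04 over all genes. Of 38 muscle genes measured on at least 3 arrays of both BPA250 and BPA25, 37 stood lower (median -2.48), against 57.3% of 14881 genes. An unadjusted p under 0.05 was reached by 4 of the 8 slow, 4 of the 12 fast and 11 of the 18 shared genes so measured. These are 19 of the 38 genes, all lower, against 0.719% of the 14881 genes lower. Unlike the comparison with control, 0 of the 38 were lower without overlap of the arrays, against 8 of the 14881.

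Over the series of doses, the slow fibre mean was 1.21 (SD 0.68, n = 5) in control, 1.77 (SD 0.92, n = 5) in BPA25 and -0.52 (SD 1.06, n = 5) in BPA250. The fast fibre mean was 4.23 (SD 1.35, n = 5) in control, 4.14 (SD 1.57, n = 5) in BPA25 and 1.36 (SD 2.15, n = 5) in BPA250. For slow fibres, the BPA250 arrays ranged from -1.93 to 0.66 and the BPA25 arrays from 0.38 to 2.58. They overlapped only through BPA25 replicate 2, which is on slide 3 too and had 94.7% of its probes above background. These means include 4 slow and 1 fast fibre genes that were well above background on fewer than 3 BPA250 arrays.

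Tnni1 differed by -3.66 ± 0.83 between BPA250 and BPA25, Myh6 by -4.18 ± 1.10, Csrp3 by -2.84 ± 0.89 and Cryab by -1.67 ± 0.46. Tnni1 and Csrp3 were well above background on only 2 BPA250 arrays, as above. Of these genes, Tnni1 (-4.72 ± 0.72, adjusted p = 0.00382 in limma) and Cryab (-2.13 ± 0.35, adjusted p = 0.00801) passed once the arrays of slide 3 were left out. In that fit 4 genes passed. Of the 4 BPA250 arrays left, 1 had Tnni1 and 4 had Cryab well above background. The other two were Tnnt1, the slow form of troponin T (-3.63 ± 0.67, adjusted p = 0.0338, above background on 2 of 4 BPA250 arrays), and the probe XM_214266, which has no RefSeq match (-3.28 ± 0.50, adjusted p = 0.00382). This setting, and Tnnt1 as a gene to name, were chosen after the values were seen. Against control, Tnni1 was the 1 gene to pass when slides 3 to 5 were left out (adjusted p = 0.0234 in limma). That setting drops BPA250 replicates 2 and 3, which held the highest BPA250 values of Tnni1 (-0.07 and -1.41). From control it drops only replicate 2, the lowest control value (-1.0). The pass and the bound below therefore follow from which arrays were left out. None of the 3 BPA250 arrays left had Tnni1 well above background, so its difference there is a bound, at least 6.53-fold lower in BPA250 than in control (measured means -4.06 and 0.38). The bound sets each BPA250 array at its lowest signal well above background, or at the value of the probe where that is higher.

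Outside muscle the doses differed less. Oas1a was -0.32 ± 0.27 and Isg15 -0.66 ± 0.40 in BPA250 relative to BPA25, the luminal median was 0.03 and the interferon median -0.11. Fatty acid synthesis genes had a median of -0.36 and cholesterol synthesis genes of -0.29. Tnfsf13b differed by 0.36 ± 0.34 and Nherf2 by -0.32 ± 0.20 between the doses.

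Differences of the other groups from control use the same 5 control arrays, so their values are only given side by side. The median of the 52 muscle genes was -2.66 for BPA250 with genistein, -3.42 for BPA250 with I3C and 0.10 for BPA25, beside -2.39 for BPA250 alone. Tnni1 differed from control by -2.84 with genistein and -3.4 with I3C at BPA250, and by 0.83 after BPA25. Oas1a differed by -0.27, -1.02 and -0.44 in the same order, Nherf2 by -0.07, -0.40 and -0.24, and Tnfsf13b by 1.06, 0.44 and 0.76.

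**Figure D5:**
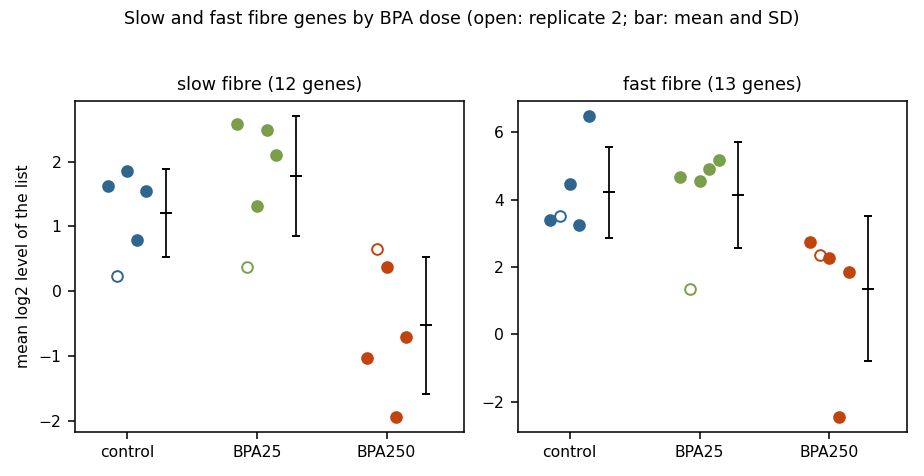
Mean log2 level of the 12 slow and 13 fast fibre genes on each array of control, BPA25 and BPA250 (5 arrays each), with open symbols for replicate 2 on slide 3 and bars for mean and SD. BPA250 has the lowest mean in both panels (-0.52 and 1.36), and outside replicate 2 all BPA25 arrays lie above all BPA250 arrays. Of the genes averaged, 4 slow and 1 fast were well above background on fewer than 3 BPA250 arrays.

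The size of the muscle difference depended on single arrays and on the signal scale. The median of the 52 genes was -1.76 without BPA250 replicate 4 and -1.89 without control replicate 5, and it was -2.76 without slide 3. It was -1.16 with normexp background correction and -1.39 in the authors' deposited table. The sign of the list median was negative in each of the 27 alternatives run.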

How the data were processed

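RNA of 35 rat mammary glands was read on 1-colour Agilent arrays, 1 array per animal. The deposited scanner files hold processed signal intensities per spot, made by the authors with Agilent Feature Extraction 9.5.3.1, per the submitters' processing notes. The authors' deposited table of the same arrays holds log2 values with nearly equal medians across arrays, by a method not given in the sources used here, and it served as an alternative. Control spots (1639) were left out, spots of 1 probe were averaged and log2 of the intensity was taken relative to the 75th percentile of each array. Probes well above background on at least 4 arrays of a group were kept, and the brightest probe stood for its gene. Of 41012 probes, 21259 matched the RefSeq gene table and 19753 did not. Array probes carry the names of their design and can be old.

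All 35 arrays in 7 groups were fitted with limma 3.58.1 in R 4.3.3 (files read with data.table, version 1.17.8), with no covariate, and p-values were adjusted by Benjamini-Hochberg. Tables and figures were made with Python 3.11.15, pandas 2.3.3, numpy 2.4.6 and matplotlib 3.10.9. The number of arrays (5 per group) limits the precision. Named genes were taken by rule: in each direction those of smallest p with an absolute log2 difference of at least 0.58 and at least 3 arrays of each group well above background, those of smallest p whatever the background, those without overlap, the members of smallest p in each list, and 12 receptor and mammary genes looked up in any case. The text gives a selection of these. The members and the gene lists were chosen with earlier results of these data known. Alternatives changed the background correction, scaling, filter, batch terms and arrays used. Deviations of same-numbered BPA250 and control arrays correlated at 0.29, 0.93, -0.19, 0.65 and 0.50 (replicates 1 to 5). Replicates 1, 2, 4 and 5 of both groups shared a scan day, and replicate 3 did not. Scan day 5 held BPA250 replicates 2 and 3 but only control replicate 2. A shared scan day and a pairing of animals cannot be told apart here. The labels name no pairing, so the numbers were not taken to pair the animals. With slide as a random block, the correlation within slides was 0.58.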

Additional observations from a re-analysis of the deposited data

Results flagged for a closer look

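In 204 groups of 5 arrays, 24 had 1 array far from the other 4 by Dixon's test, which chance gives in about 1 group of 20. The cause was not tested for any of them. BPA250 replicate 4 was far below the other BPA250 arrays for Atp2a1 (-4.06), Myot (-4.72), Eno3 (1.09), Pgam2 (-2.48), the probe TC537731 (-2.37) and the mean of the fast fibre list (-2.44). Control replicate 5 was far above the other control arrays for Pdlim3 (3.78) and Myog (1.75).

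Replicate 2 of both groups, on slide 3, gave most of the others. Control replicate 2 was high for Ap3m1 (0.71) and for the percent of probes well above background (93.4). It was low for Ezh2 (-2.58), Hbb (3.75), Igf1 (5.31), the mean of the white adipocyte list (2.98) and the mean of all genes tested (-0.10). BPA250 replicate 2 was high for Myod1 (-1.29) and low for Irf7 (-0.84), Cldn4 (-2.21) and the mean of all genes tested (-0.16).

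Control replicate 3 was low for Tnfsf13b (-3.71) and Dcx (-3.73) and high for the probe LOC690744 (-1.65). Control replicate 1 was high for Per1 (-0.64), and BPA250 replicate 3 was high for the probe BF408957 (1.57).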

How the results depend on the processing

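Against the 0 genes called by limma between BPA250 and control, array quality weights gave 2 genes and leaving out slides 3 to 5 gave 1, and the other 25 of 27 alternatives gave 0. Between BPA250 and BPA25 the weights gave 39 and leaving out slide 3 gave 4 and slides 3 to 5 gave 7, against 0. Leaving out slides 3 to 5, and all 3 of these settings for BPA25, were chosen after the data were seen. Genes at an unadjusted p under 0.05 numbered 160, and 87 with normexp, 451 and 466 with slide as a fixed or random block, 274 with scan day, 640 with weights, 281 and 319 without slide 3 or slides 3 to 5, and 100 to 346 with 1 array left out. The muscle median of -2.39 became -1.16 with normexp and ranged from -2.66 to -1.76 with 1 array left out. With the replicate number as a block 0 genes passed, 261 had an unadjusted p under 0.05 and the muscle median was -2.39. The median of all genes became -0.17 when arrays were scaled by their median, and 0.18 and -0.27 without replicate 2 of BPA250 or control.

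Of 91 genes checked, 6 changed sign in some alternative, and the cause was not tested. With normexp TC528868 was -0.01, Prlr 0.04, Csn2 0.17, Areg 0.17 and Igf1 -0.22. Csn2 was also 0.04 with quantile normalization, 0.06 in the authors' deposited table and 0.01 without slide 3. Cldn4 was 0.36 with no filter on dim probes, and Igf1 -0.06 when scaled by the array median. With 1 array left out, Prlr ranged from -0.32 to 0.27, Csn2 from -0.42 to 0.20, Areg from -0.57 to 0.29 and Igf1 from -0.42 to 0.54. Probes near background limit what these arrays can show.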
